A study of Mus musculus with 9 samples.

Results

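Among 9 RNA sequencing libraries of mouse granulosa cells, 3 held the steroidogenic transcript Cyp17a1 at under 2 FPKM (fragments scaled to the length of the exons and the size of the library), and the other 6 held it at more. Libraries were selected on their own measured FPKM of Cyp17a1, the value that chose both classes, so the split is a property of the measurements and not of the labels. The 3 low libraries were Control 2 at 0.584, CTX_HCQ 1 at 0.958 and Control 3 at 0.986 FPKM, from 29, 44 and 45 reads. The 6 high libraries were CTX 1 at 7.06, CTX 3 at 7.65, Control 1 at 16.6, CTX_HCQ 2 at 24.2, CTX 2 at 24.7 and CTX_HCQ 3 at 45.4 FPKM, from 329 to 1931 reads. Nothing lay between 0.986 and 7.06 FPKM. The split crosses the treatments: Control holds 2 low libraries and 1 high, CTX_HCQ holds 1 low and 2 high, and CTX holds 3 high.

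The cells came from ovaries of wild-type female C57BL/6 mice in 3 treatment groups of 3 libraries each. Control mice are called untreated in one label and are described with vehicle in the design text. CTX mice received cyclophosphamide, an alkylating drug toxic to follicles, at 120 mg/kg. CTX_HCQ mice received the same cyclophosphamide and also hydroxychloroquine, a drug that accumulates in lysosomes, dosed daily at 40 mg/kg, beginning 7 days ahead of the cyclophosphamide and ending 4 weeks after it. Ages, and whether a library is 1 animal or a pool, are not given in the sources used here.

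CYP17A1 is the enzyme that turns pregnenolone and progesterone into androgen precursors, and in the growing follicle it is made by theca cells, outside the basement membrane. Granulosa cells lie inside that membrane, convert the androgens to oestrogens with aromatase (Cyp19a1), and make inhibins, activins and anti-Müllerian hormone (Amh). The surge of luteinizing hormone shuts down both enzymes, induces genes of ovulation such as Adamts1, Runx1 and Edn2, and turns the follicle wall into a corpus luteum, into which blood vessels grow.

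Markers of the labelled cell type were expressed in every library. Foxl2, a transcription factor of granulosa cell identity, ranged from 67.8 to 103.8 FPKM, Inha, the inhibin alpha subunit, from 2865 to 4951, Amh from 172 to 540 and the receptor gene of follicle-stimulating hormone, Fshr, from 18.2 to 45.7. Insl3, a hormone of theca cells, was never above 2.02 FPKM. Other genes of the theca list ranged more widely: Aldh1a1 from 90.8 to 227 FPKM, Srd5a1 from 7.73 to 15.5, Nr2f2 from 6.47 to 10.1 and Gli1 from 0.512 to 1.37. The share of theca cells therefore cannot be read from Insl3 alone.

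Depth was similar in both classes. Whole reads could be recovered from the FPKM, and their totals ran from 16763434 to 17777139 in the 3 low libraries and from 13920684 to 17329550 in the 6 high ones. A pair of high libraries stood apart: CTX 3 had 28.9% of its summed FPKM in mitochondrially encoded genes, against 11.7% to 17.5% in the other 8, and CTX_HCQ 3 had the fewest reads. The recovered reads of CTX_HCQ 3 were 0.907 of the library size behind its FPKM, 15344526, against 0.979 to 1.03 in the other 8. Across genes, the 3 low libraries correlated with each other at 0.980 to 0.982, although CTX_HCQ 1 comes from another treatment than Control 2 and Control 3. The 15 pairs of high libraries ranged from 0.880 to 0.975 and the 18 pairs of a low with a high library from 0.906 to 0.955. Of the variation across genes, 27.6% lay between the low and high classes, with 1 degree of freedom, and 29.0% between the 3 treatments, with 2. Since the classes were made from the same libraries, these figures and all differences between the classes are descriptions and carry no p-value.

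**Figure D1:**
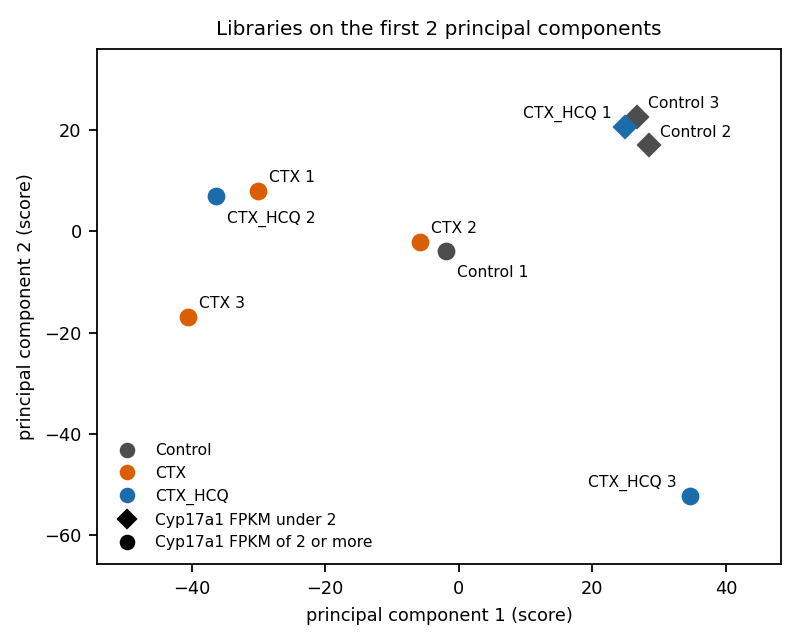
Scores of the 9 libraries on the first 2 principal components of log2(FPKM + 1), which hold 37.3% and 22.5% of the variation; colour gives the treatment, diamonds the 3 libraries with Cyp17a1 under 2 FPKM and circles the other 6. The 3 diamonds lie together, at 24.9 to 28.5 on component 1 and 16.9 to 22.6 on component 2, while CTX_HCQ 3 shares their side of component 1 at 34.7 and lies at -52.3 on component 2.

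For every gene with an FPKM of at least 1 in 3 or more libraries, the mean of log2(FPKM + 1) over the 6 high libraries was subtracted from the mean over the 3 low ones. A gene is counted as higher when all 3 low libraries exceeded all 6 high ones and the difference was at least 1, and as lower in the mirror case. Of 14430 genes besides Cyp17a1, 225 were higher (1.56%) and 158 lower (1.09%). No overlap alone, with no minimum of size, was met by 1213 genes upward (8.41%) and 661 downward (4.58%), and 26 higher and 15 lower genes reached a difference of 2. Without CTX 3 and CTX_HCQ 3 the counts were 250 and 240, of which 193 and 131 were among the 225 and 158. Without CTX_HCQ 3 alone they were 267 and 232, of which 211 and 144 were. The classes differ in libraries and may differ in cell content: in bulk RNA, fewer cells of a type and less RNA per cell cannot be told apart.

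The genes with the largest upward differences included several that luteinizing hormone is known to induce in granulosa cells. Adamts1 (ENSMUSG00000022893), a protease that cleaves versican in the matrix of the ovulating follicle, stood at 135 FPKM in Control 2, 203 in Control 3 and 132 in CTX_HCQ 1. In the 6 high libraries it ranged from 6.64 to 21.0 with a median of 11.9, a log2 difference of 3.60. Runx1 (ENSMUSG00000022952), a transcription factor of the periovulatory follicle, stood at 24.9, 27.8 and 19.0 FPKM in the 3 low libraries and between 3.23 and 5.7 in the others, a difference of 2.23. Edn2 (ENSMUSG00000028635), the endothelin that contracts the follicle wall, stood at 7.97, 14.9 and 14.6 FPKM against 0.625 to 2.63, a difference of 2.54. Genes named by size had to have every low library above every high one. That CTX_HCQ 1 lay with Control 2 and Control 3 in these 3 genes was therefore fixed by the selection, and only the sizes can be read.

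**Figure D2:**
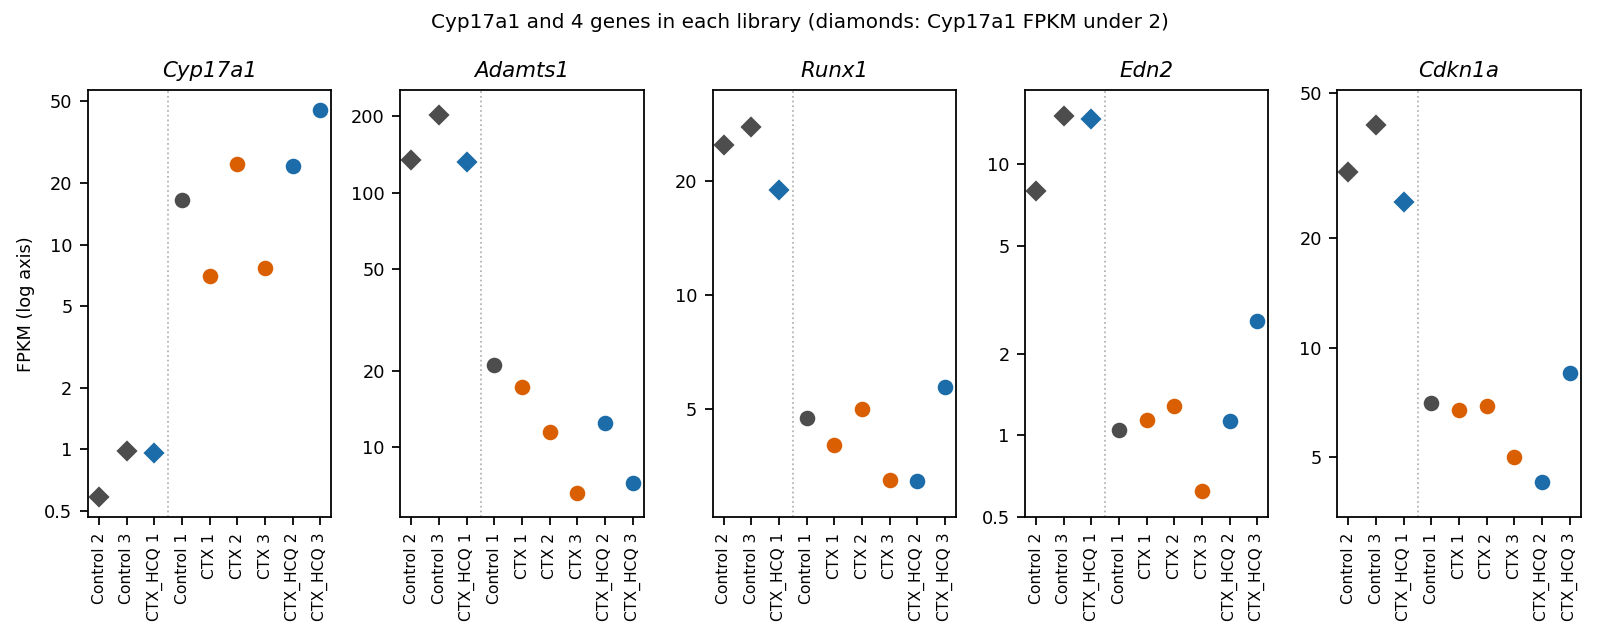
FPKM on a log axis of Cyp17a1, which defines the split, and of Adamts1, Runx1, Edn2 and Cdkn1a in each of the 9 libraries; diamonds left of the dotted line are the 3 low libraries and colour gives the treatment (grey Control, orange CTX, blue CTX_HCQ). In the 4 genes the diamonds lie above all circles, with Adamts1 at 132 to 203 FPKM against 6.64 to 21.0. No overlap was a condition for naming Adamts1, Runx1 and Edn2 by size.

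The promoter of Adamts1 is shown because the gene has the widest gap among the ovulation genes. The window holds 210 bases, from 250 to 41 before the transcription start on the minus strand of GRCm38.p6, chr16:85803154-85803363, from RefSeq, with GC boxes (GGGCGG, both strands searched) in capitals at -147 and -76.

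Adamts1: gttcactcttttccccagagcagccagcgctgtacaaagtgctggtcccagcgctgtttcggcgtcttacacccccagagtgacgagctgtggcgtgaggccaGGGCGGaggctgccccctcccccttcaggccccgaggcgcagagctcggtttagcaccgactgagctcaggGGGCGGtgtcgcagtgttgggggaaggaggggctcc

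A GC box was present in 46.4% of the windows of this length at all tested genes, in 46.0% at the genes higher in the low libraries and in 30.5% at the lower genes. Windows were found for 10091 of 14142 tested genes with a symbol, for 167 of the 225 higher and for 100 of 157 lower genes.

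The ovulation list was mixed. Of 24 genes on the list of ovulation and cumulus expansion, 13 passed the filter, 10 with a difference above 0 and 3 below, and the median difference was 0.27 beside 0.01 over all genes, of which 51.5% were above 0 and 48.5% below. The classes did not overlap in 4 members upward (Adamts1, Runx1, Edn2 and Adamts4) and in 1 downward, beside 8.41% and 4.58% of all genes. Adamts4, a related protease, stood at 4.48, 5.67 and 2.67 FPKM against 0.316 to 1.27, a difference of 1.46. The other 11 members were below the filter, and of these the classes did not overlap in 3 upward and 1 downward. Btc, an epidermal growth factor family ligand, stood at 1.07, 2.05 and 0.907 FPKM against 0.24 to 0.767. Ereg, another such ligand, stood at 0.554, 0.705 and 1.72 against 0.0158 to 0.418. Tnfaip6, which links hyaluronan in the cumulus matrix, stood at 1.04, 1.06 and 0.635 against 0.0669 to 0.556. The progesterone receptor Pgr was the one lower, at 0.0196, 0.0781 and 0.0706 against 0.145 to 0.292. The other 7 below the filter overlapped, among them the enzyme of the ovulatory prostaglandins, Ptgs2, at 0.0569 to 0.369 FPKM over all 9 libraries, and Has2, which makes hyaluronan, at 0.0573 to 0.195. These 6 genes were picked after their values had been seen.

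The remaining genes with the largest upward differences encode secreted proteins, receptors, enzymes and nuclear factors. Spp1, osteopontin, headed them at 83.3, 182 and 52.0 FPKM against 2.42 to 7.49, a difference of 4.20. Tinagl1, a matricellular protein of basement membranes, stood at 105, 150 and 97.1 against 3.56 to 10.1, a difference of 3.85. Cxcr4, the receptor of the chemokine CXCL12, stood at 51.1, 68.1 and 70.8 against 1.69 to 8.71, a difference of 3.33. Prss35, a secreted member of the serine protease family, was the most abundant of them at 872, 1036 and 746 FPKM against 86.4 to 269. Apln, the peptide ligand of the apelin receptor, stood at 77.1, 83.8 and 63.6 FPKM. Its high libraries spread widely, from 4.18 to 39.7, with Control 1, CTX 1 and CTX 2 at 27.2 to 39.7 and the other 3 at 4.18 to 7.92.

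Enzymes and signalling genes were also among the largest upward differences. Ptgs1, the constitutive cyclooxygenase, stood at 25.7, 39.7 and 14.9 FPKM against 2.36 to 3.41, a difference of 2.76. The sialyltransferase St3gal1 (2.16), the mitochondrial carrier Slc25a30 (2.16), the small GTPase Rem1 (2.46), the membrane protein Parm1 (2.71) and the chromatin remodeller Smarca1 (2.62) were also among those named by size, each with its log2 difference in parentheses. Smarca1 was abundant in both classes, at 142, 191 and 160 FPKM against 14.0 to 42.5.

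**Figure D3:**
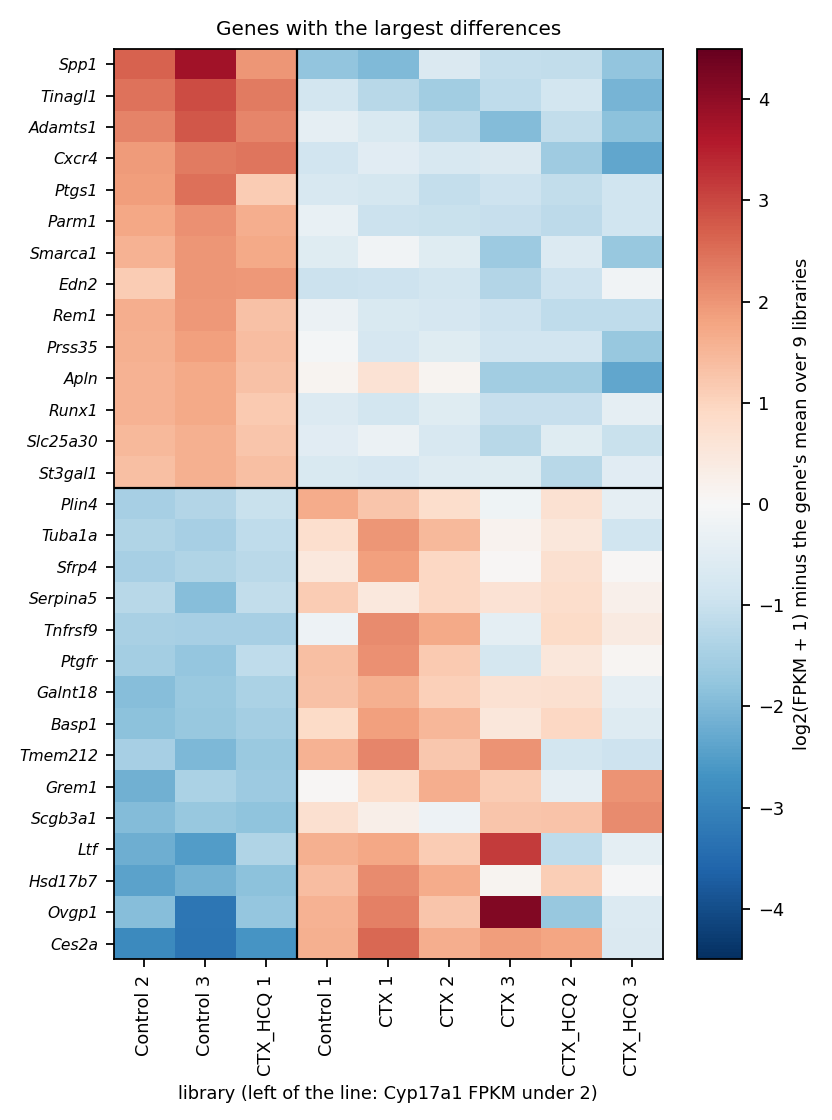
Heat map of log2(FPKM + 1) minus the gene's mean over 9 libraries for the named genes with the largest upward and downward differences; columns left of the line are the 3 low libraries. Upward genes are red in all 3 low libraries, while the downward genes vary among the 6 high ones, with CTX_HCQ 3, at 6.88 FPKM, the one high library below the mean of Ces2a. All these genes were named under the condition of no overlap between the classes.

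Cdkn1a is the gene of p21, a brake on the cell cycle, and was measured at 30.4 FPKM in Control 2, 40.7 in Control 3 and 25.1 in CTX_HCQ 1. In the high libraries it ranged from 4.28 to 8.53 with a median of 6.84, a difference of 2.16. Among 11 measured cell cycle inhibitors 7 had a difference above 0 and 4 below, with a median of 0.06. Cdkn2b, which encodes p15, went the other way at 1.04, 1.44 and 1.35 FPKM against 1.69 to 7.57, a difference of -1.03, and Cdkn2d, p19, overlapped at 0.72. Mitotic genes were nearly level: the median of 28 cell cycle genes was 0.14, with 20 above 0 and 8 below. Upward, 8.41% of all genes did not overlap, and of these 28 only 2 did not. Rrm2, a subunit of ribonucleotide reductase, was one of them at 24.5, 23.4 and 20.002 FPKM against 8.24 to 14.3. Mki67, the proliferation marker, overlapped at 11.1, 14.5 and 12.3 against 13.9 to 28.4, and the replication helicase subunits Mcm2 (0.48) and Mcm5 (0.47) differed by less than 1.

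Cdkn1a is also a target of p53, the transcription factor activated by DNA damage. Of 18 measured p53 targets 14 had a difference above 0, with a median of 0.41, and 9 did not overlap upward and 2 downward. Over all genes 51.5% lay above 0, and 8.41% did not overlap upward and 4.58% downward. Trp53inp1, a stress-induced nuclear protein, stood at 32.4, 40.9 and 32.4 FPKM against 12.2 to 19.7, a difference of 1.02. Ccng1, cyclin G1, stood at 31.2, 40.3 and 26.3 against 13.4 to 20.9, a difference of 0.88. Btg2, an antiproliferative gene on both lists, overlapped because Control 1 at 31.1 FPKM exceeded Control 2 at 24.6. The low libraries include no CTX library, so all 3 libraries of cyclophosphamide alone lie on the side with less Cdkn1a.

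Genes of glycolysis and of the response to low oxygen were higher in the low libraries in most members. Of 21 measured identifiers (20 genes, Aldoa with 2), 17 had a difference above 0, 11 of them without overlap, and none lay below without overlap. Among all genes 8.41% were higher and 4.58% lower without overlap. The list's median was 0.68, and it was 0.74 within Control and 0.68 within CTX_HCQ. Bnip3, a mitochondrial protein of mitophagy induced by low oxygen, stood at 88.5, 107 and 81.0 FPKM against 16.8 to 36.7, a difference of 1.87. Hk2, the inducible hexokinase, stood at 19.2, 21.8 and 22.1 against 3.61 to 10.3, a difference of 1.43. The glycolytic enzymes Eno1 (217, 241 and 208 FPKM against 58.1 to 126) and Pgk1 (174, 197 and 182 against 51.1 to 132) differed by 1.18 and 1.13. The exceptions, with a difference below 0, all overlapped and are named after their values were seen. They were the glucose carrier Slc2a3 at 0.658 to 0.846 FPKM in the low libraries and the vasodilator peptide Adm at 0.749 to 1.75 in the same. The regulatory enzyme Pfkfb4 (-0.12) and the oxygen-sensing hydroxylase Egln3 (-0.13) were the others.

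The hypoxia response core ACGTG was searched on both strands in the windows of this list. It was present in 12 of 27 windows (44.4%) of 18 members, some of which have several windows. The list was made of known genes of this response, so that share describes the list and not the split. At all tested genes the core was in 17.2% of windows. At the genes higher in the low libraries it was in 19.0%, and at the lower genes in 7.63%. The windows of Bnip3 (chr7:138909547-138909756, minus strand) and Hk2 (chr6:82774495-82774704, minus strand) are printed because they belong to the members with the largest differences, with the core in capitals. In Bnip3 the core lies on both strands of 1 palindrome, at -108 and -107, and in Hk2 there are 2 separate matches at -226 and -52.

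Bnip3: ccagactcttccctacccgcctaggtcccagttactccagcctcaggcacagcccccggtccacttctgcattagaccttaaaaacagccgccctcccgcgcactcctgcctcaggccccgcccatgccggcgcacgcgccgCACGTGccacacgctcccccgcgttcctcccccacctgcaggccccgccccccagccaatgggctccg

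Hk2: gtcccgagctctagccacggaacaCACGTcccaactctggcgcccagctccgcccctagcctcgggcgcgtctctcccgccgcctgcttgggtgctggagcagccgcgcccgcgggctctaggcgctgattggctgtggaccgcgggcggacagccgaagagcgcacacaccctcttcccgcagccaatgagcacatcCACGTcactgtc

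Genes of the basement membrane and its modifying enzymes were higher in 16 of 23 members, 10 without overlap, with none below without overlap and a median of 0.41. The shares over all genes were 8.41% higher and 4.58% lower without overlap. Loxl2, a lysyl oxidase that crosslinks collagen IV, stood at 59.2, 92.3 and 36.5 FPKM against 6.05 to 20.6, a difference of 2.07. Hspg2, the proteoglycan perlecan, stood at 86.1, 87.4 and 89.6 against 21.7 to 50.7, a difference of 1.46. Col4a2, a collagen IV chain, stood at 106, 127 and 111 against 29.9 to 67.8, a difference of 1.28. Itga5, the fibronectin receptor subunit, stood at 34.3, 35.7 and 30.1 against 11.8 to 17.3, a difference of 1.17. Within Control the list's median was 0.05, against 0.42 within CTX_HCQ. The 4 genes named did not overlap between the classes, which fixes a positive sign in both treatments. They were higher by 0.76 to 1.93 within Control and by 1.13 to 1.51 within CTX_HCQ.

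Among the largest downward differences were 3 genes of the corpus luteum and several of lipid handling. Hsd17b7 (ENSMUSG00000026675), an enzyme of both cholesterol synthesis and oestradiol production that marks the rodent corpus luteum, stood at 10.7, 13.3 and 16.5 FPKM in the 3 low libraries. The 6 high libraries ranged from 59.1 in CTX_HCQ 3 to 271 in CTX 1, with a median of 148, and the difference was -3.19. Ptgfr, the luteal receptor of prostaglandin F2 alpha, stood at 8.86, 7.71 and 12.0 against 15.6 to 119, a difference of -2.21. Sfrp4, a secreted WNT antagonist of the corpus luteum, stood at 67.1, 74.7 and 82.0 against 198 to 694, a difference of -2.03. Ces2a, a carboxylesterase, headed the list at 0.709, 0.283 and 0.946 against 6.88 to 73.0, a difference of -4.40. Plin4, a lipid droplet coat protein, stood at 13.5, 15.5 and 19.8 against 30.0 to 131.

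The promoter of Hsd17b7 (chr1:169969246-169969455, minus strand) is shown as the largest difference of the luteal and cholesterol lists, with its 2 CCAAT boxes (both strands searched, at -165 and -73) in capitals. A CCAAT box was present in 30.8% of all tested windows, in 31.4% at the lower and in 28.3% at the higher genes. The Hsd17b7 window also holds 2 matches of the hypoxia response core ACGTG, on both strands of 1 palindrome, not in capitals.

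Hsd17b7: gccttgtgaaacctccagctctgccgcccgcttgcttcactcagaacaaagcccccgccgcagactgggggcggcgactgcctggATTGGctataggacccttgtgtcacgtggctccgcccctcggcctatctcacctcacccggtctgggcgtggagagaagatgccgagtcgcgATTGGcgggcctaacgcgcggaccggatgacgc

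The luteal list as a whole did not follow these 3 genes. Of 14 luteal progesterone genes 8 had a difference above 0 and 6 below, with a median of 0.18, which was -0.08 without CTX 3 and CTX_HCQ 3. It was -0.37 within Control and 0.67 within CTX_HCQ, opposite signs. Star, which moves cholesterol into mitochondria, stood at 148, 141 and 192 FPKM against 42.7 to 179, and all high libraries but CTX_HCQ 3 were at 137 or more. Lhcgr, the receptor of luteinizing hormone, stood at 84.6, 113 and 76.1 against 62.5 to 264. Parm1 was the only member above without overlap, and Hsd17b7, Ptgfr and Sfrp4 the only ones below, beside 8.41% and 4.58% of all genes.

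Genes of cholesterol synthesis were lower in 20 of 24 members, 6 without overlap, with a median of -0.66, which was -1.02 without CTX 3 and CTX_HCQ 3. Of all genes 48.5% had a difference below 0, and 4.58% lay lower without overlap. Besides Hsd17b7, Cyp51, the lanosterol demethylase, stood at 24.7, 26.7 and 27.7 FPKM against 30.5 to 122, a difference of -1.32. Mvd, an enzyme of the mevalonate pathway, stood at 15.6, 15.1 and 15.4, and CTX_HCQ 3 at 12.9 lay below them while the other 5 were at 36.2 to 61.9. Tm7sf2, a sterol reductase, stood at 4.54, 5.18 and 3.56 against 6.25 to 18.8. In the opposite direction 1 member did not overlap: Dhcr7, the last reductase of the pathway, chosen after its values were seen, stood at 60.2, 71.6 and 61.8 against 16.0 to 45.5, a difference of 0.90. CTX_HCQ 3 was the high library with the lowest level of this list, at a median of -0.64 from the mean of each gene, against -0.51, -0.37 and -0.41 in the 3 low libraries.

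Hormone genes of the growing follicle showed smaller differences. Of 18 members 6 had a difference above 0 and 12 below, with a median of -0.30. No overlap was met by 1 member upward and 2 downward, beside 8.41% and 4.58% of all genes. Inhba, the activin subunit, was lower without overlap at 41.6, 82.8 and 82.6 FPKM against 113 to 440, a difference of -1.53. Igf1, insulin-like growth factor, was lower without overlap, with a difference of -0.57. Amhr2, the receptor of anti-Müllerian hormone, chosen after its values were seen, was higher without overlap at 137, 128 and 141 against 89.6 to 110.2, a difference of 0.45. Cyp19a1 overlapped at 5.004, 10.5 and 11.1 against 7.93 to 37.6, with a difference of -1.12. Amh (0.68), Foxl2 (0.25) and Fshr (-0.19) overlapped too.

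Other genes lower in the low libraries belong to signalling and to secreted proteins. Grem1, an antagonist of bone morphogenetic proteins, stood at 0.430, 1.37 and 1.06 FPKM against 3.76 to 24.8, a difference of -2.60. Tnfrsf9, a receptor of the tumour necrosis factor family, differed by -2.21, the protease inhibitor Serpina5 by -2.12, the growth cone protein Basp1 by -2.54, the glycosyltransferase Galnt18 by -2.52, the tubulin gene Tuba1a by -1.99 and the secretoglobin Scgb3a1 by -2.72. Of 11 measured targets of TGF beta and BMP signals 4 lay above 0 and 7 below, with a median of -0.22. It was -0.22 within Control and 0.08 within CTX_HCQ, opposite signs. No overlap was met by 1 member upward and 2 downward. Over all genes 48.5% lay below 0, and 8.41% were higher and 4.58% lower without overlap. Ccn2, a matricellular growth factor, was 19.7, 5.17 and 4.91 FPKM against 19.3 to 54.6 (difference -2.09), overlapping through Control 2 and CTX 2 alone. Id2, an inhibitor of DNA binding, differed by 1.30, and Id3 (-0.67) and Id4 (-0.61), both without overlap, by negative amounts. The inhibitory Smad6 (0.51), chosen after its values were seen, was higher without overlap.

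Lists of other signals were described in the same way. In the list of ERK feedback and immediate early genes 10 of 19 lay above 0, with a median of 0.05. Fos stood at 15.3, 15.5 and 5.33 FPKM against 7.15 to 83.9 (difference -1.45), and Fosb (-1.28) and Junb (0.71), other AP-1 subunits, and the signalling gene Phlda1 (-1.34, no overlap) were its other large members. The transcription factor Myc, at 47.8, 57.5 and 49.8 FPKM against 22.1 to 40.7 (0.68), and the phosphatase gene Dusp5, at 6.96, 7.16 and 8.90 against 5.53 to 6.76 (0.29), were higher without overlap and were chosen after their values were seen. In the cAMP response list 6 of 9 lay above 0, with a median of 0.32, which was -0.10 without CTX_HCQ 1. Its largest members were the kinase Sgk1 (1.01), the clock gene Per1 (0.61, no overlap), the phosphodiesterase Pde4b (-0.61) and the repressor Crem (-0.44). Of WNT targets 5 of 9 lay above 0 (median 0.06). The receptor Fzd1 (0.90), the feedback inhibitor Axin2 (0.73) and the ubiquitin ligase Znrf3 (0.57) were higher without overlap. The antagonist Dkk3 (-0.62) was lower without overlap. Beside the counts of these lists, 8.41% of all genes were higher and 4.58% lower without overlap.

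The Notch pathway lay mostly below 0. Of its measured genes 9 of 10 lay below 0, with 5 lower and 1 higher without overlap (4.58% and 8.41% of all genes) and a median of -0.44. The receptor Notch2 was the higher one, at 15.4, 15.7 and 13.4 FPKM against 4.68 to 11.7, and the endothelial ligand Dll4 (-1.07), the target Hey2 (-0.61) and the pericyte receptor Notch3 (-0.66) lay below 0.

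Markers of blood vessels were lower in the low libraries. All 13 measured endothelial markers had a difference below 0, 9 of them without overlap, with a median of -1.03. Of all genes 48.5% had a difference below 0, and 4.58% lay lower without overlap. The sum of the endothelial list was 43.4 to 53.7 FPKM in the low libraries and 59.1 to 144.5 in the high ones. Pecam1, an adhesion protein of endothelial junctions, stood at 2.79, 2.37 and 2.38 FPKM against 4.22 to 13.0. Eng, a co-receptor of TGF beta, stood at 4.83, 4.60 and 5.75 against 6.63 to 17.9. The receptor Tie1 (-1.27) and the tight junction gene Cldn5 (-1.30) differed by as much. Of 11 smooth muscle and pericyte markers 10 lay below 0, 3 without overlap, with a median of -0.69 and sums of 60.2 to 83.0 against 76.8 to 237.7 FPKM. Rgs5, a pericyte marker, stood at 1.43, 1.83 and 1.54 against 3.68 to 16.3, and the contractile genes Acta2 (-0.95) and Myh11 (-0.99) and the adhesion gene Mcam (-0.99) lay lower too. The part of these cells in the differences of other genes was not tested.

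Markers of the oviduct also differed between the classes, but unevenly. Of 12 motile cilia and oviduct markers all lay below 0, 3 without overlap (4.58% of all genes), with a median of -0.87. Their sums were 8.18 to 15.8 FPKM in the low libraries against 14.4 to 402.8 in the high ones. Ovgp1, a secreted glycoprotein of the oviduct, stood at 4.01, 1.01 and 4.69 FPKM. In the high libraries it was 4.90 in CTX_HCQ 2, 11.3 in CTX_HCQ 3 and 44.4 to 339 in Control 1 and the 3 CTX libraries. Within CTX_HCQ the list's median was 0.09, against -1.05 within Control, so the difference was not seen in both treatments. Foxj1, the regulator of motile cilia (-2.28), Tekt1 of the ciliary axoneme (-1.21), the transcription factor Sox17 (-1.06), the membrane protein gene Tmem212 (-2.60) and lactoferrin, Ltf (-3.02), had negative differences too. Foxj1 was 0.262 FPKM in CTX_HCQ 2, below Control 2 at 0.425. The part of oviduct tissue in other differences was not tested.

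Most genes overlap between the classes: over all genes 8.41% were higher and 4.58% lower without overlap. Markers of the remaining cell types overlapped in nearly all members too. Of the theca and androgen genes 5 of 8 were measured, with 2 above and 3 below 0, none without overlap, a median of -0.16 and sums of 152 to 159 FPKM against 117 to 261: Srd5a1 differed by 0.36, Aldh1a1 by -0.26, Gli1 by -0.21 and Nr2f2 by -0.16. None of the 5 separated the classes as Cyp17a1 does by construction, but 5 genes are too few to set apart from the share over all genes. Oocyte markers lay below 0 in 13 of 13 with a median of -0.34 and 1 without overlap, with the egg coat gene Zp3 at -0.38, Ooep at -0.65, Oosp1 at -0.62 and Dppa3 at -0.51. Macrophage markers lay below 0 in 12 of 13 (median -0.22), with Tyrobp, Cd14, Ctss and Fcgr3 between -0.57 and -0.40. Adipocyte markers lay below 0 in 5 of 8 (median -0.64, 1 without overlap), with Adipoq at -1.13, Cfd at -0.70 and Cidec at -0.65. Fibroblast and stroma markers were above 0 in 7 of 11 (median 0.17), with Ogn at -1.21, Tcf21 at -0.62, Col3a1 at 0.56 and Col1a1 at 0.50. Ovarian surface epithelium markers were above 0 in 7 of 10 (median 0.12), with Upk3b at 0.84, Cdh1 at -0.47, Msln at 0.31 and Upk1b at 0.25. Lymphocyte markers were above 0 in 3 of 5 measured (median 0.14), with Jchain at -0.70, Cd79b at 0.41, Nkg7 at 0.18 and Cd79a at -0.14. No neutrophil marker passed the filter, and Ly6g was at 0 in all libraries, while Camp, chosen after its values were seen, was at 0.716 to 1.32 FPKM in the low libraries and at most 0.43 in the others.

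Erythroid genes were high in 1 low library. All 6 measured had a difference above 0, none without overlap, with a median of 1.04 but -0.67 within CTX_HCQ. Hbb-bs, a beta globin, stood at 375 FPKM in Control 2, 1490 in Control 3 and 150 in CTX_HCQ 1 against 141 to 418, and Hba-a1, an alpha globin, at 353, 1519 and 125 against 127 to 329. Hbb-bt (1.05) followed Hbb-bs, with which it may share reads, and the haem enzyme Alas2 differed by 1.19, or by 0.42 without Control 3.

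Transcripts of the ribosome and of respiration had medians below 0 over the 9 libraries. All 13 mitochondrially encoded genes lay below 0 with a median of -0.69, which was -0.38 without CTX 3 and CTX_HCQ 3 and was -0.26 within Control and -0.55 within CTX_HCQ, and none was without overlap. CTX 3 held the highest values, with mt-Co3 at 1790 FPKM against 185 to 611 in the other high libraries and 111, 218 and 126 in the low ones, and mt-Co2 (-1.32), mt-Atp6 (-1.32) and mt-Nd4l (-0.97) were the next in size. Nuclear genes of oxidative phosphorylation lay below 0 in 28 of 35 (median -0.23), with Ndufa1, Atp5e, Ndufa6 and Ndufa2 between -0.61 and -0.58, and the ribosomal protein genes in 31 of 33 (median -0.28), with Rps27 at -1.55, Rpl38 at -0.79, Rps23 at -0.57 and Rpl26 at -0.52. No gene of either list was without overlap. CTX_HCQ 3, with the fewest reads, had the lowest sums of both lists. Its ribosomal sum was 5661 FPKM, against 8970 to 9609 in the low libraries and 10680 to 16320 in the other high ones. For nuclear oxidative phosphorylation it was 1483, against 2325 to 2628 and 2779 to 3759. The median of the nuclear genes of oxidative phosphorylation was -0.21 within Control and 0.14 within CTX_HCQ, opposite signs, and that of the ribosomal protein genes was -0.23 and -0.03. Interferon-stimulated genes lay below 0 in 15 of 20 with a median of -0.06 (0.33 within Control and -0.06 within CTX_HCQ), none without overlap, and Isg15 (-0.79), Bst2 (-0.66), Ifit1 (-0.61) and Gbp3 (-0.42) were the largest. Gene length moved with the split: the median difference was -0.10 in the third of genes with the shortest exons, 0.03 in the middle and 0.08 in the third with the longest. The higher and lower genes numbered 63 and 82 among the short, 86 and 50 among the middle and 76 and 25 among the long genes, and the part of length in the counts was not tested.

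**Figure D4:**
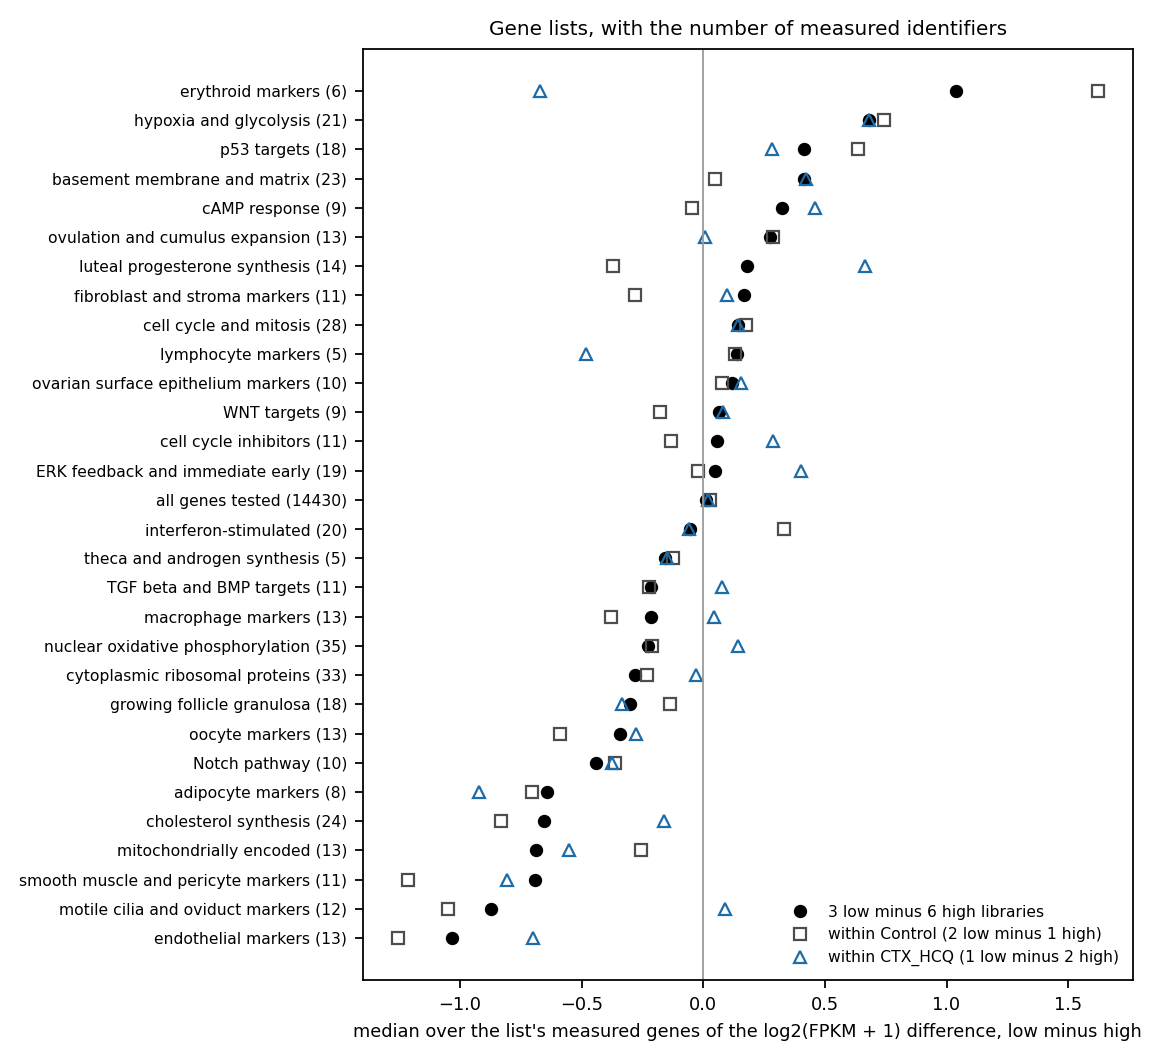
Median over each list's measured genes of the log2(FPKM + 1) difference, low minus high, for all 9 libraries (black circles), within Control (squares) and within CTX_HCQ (triangles); the number of measured identifiers is in parentheses and each point is a median of genes with no error bar. Hypoxia and glycolysis lies at 0.68, 0.74 and 0.68 and endothelial markers at -1.03, -1.26 and -0.70, while 13 of 29 lists, erythroid, luteal, oviduct and nuclear oxidative phosphorylation among them, have medians of opposite sign in the 2 treatments.

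Control and CTX_HCQ each hold libraries of both classes and share none, so the split can be read within each. Control 2 and 3 minus Control 1, and CTX_HCQ 1 minus CTX_HCQ 2 and 3, correlated across 14430 genes at 0.40, and 58.9% of genes had the same sign. Genes are not independent of each other, each difference rests on 1 library on one side, and the rule chose both splits, so this is a description. At least 1 in both differences were 132 genes and at most -1 in both 121 genes, against 16 and 9 that passed 1 in opposite directions. Adamts1 differed by 2.92 within Control and 3.66 within CTX_HCQ, Cxcr4 by 3.003 and 4.36, Spp1 by 4.98 and 3.43, Runx1 by 2.25 and 1.91, Edn2 by 2.54 and 2.48 and Cdkn1a by 2.17 and 1.88. Hsd17b7 differed by -3.67 and -2.36 and Ces2a by -4.66 and -3.23. Ovgp1 at -4.16 and -0.58, Ltf at -3.94 and -0.55 and Tmem212 at -3.33 and -0.78 were lower in both but by far less within CTX_HCQ. The genes named here had no overlap between the classes, which fixes both signs in advance, so only the sizes can be read.

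**Figure D5:**
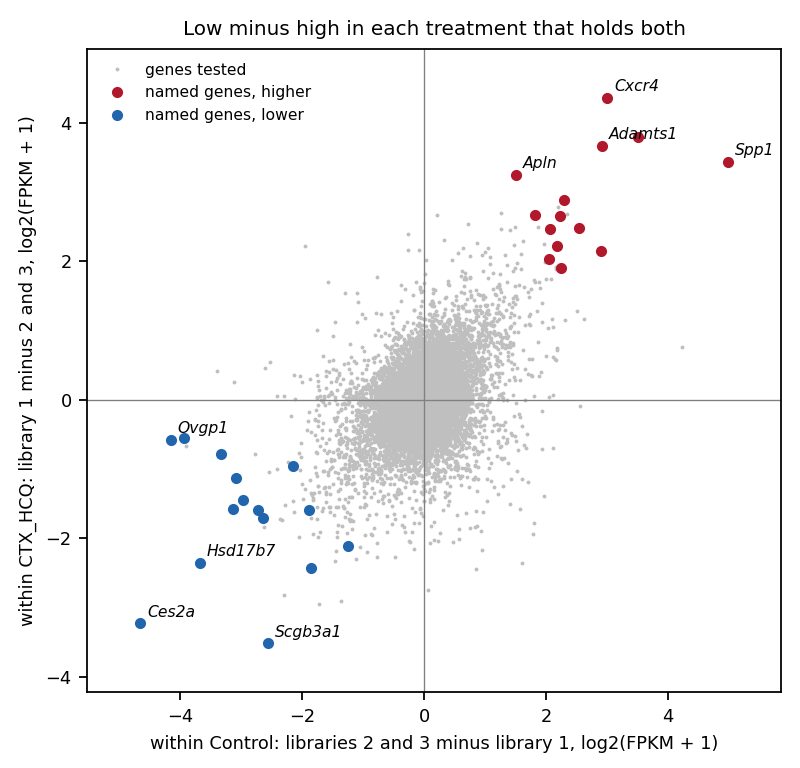
Difference in log2(FPKM + 1) within Control (x axis) and within CTX_HCQ (y axis) for 14430 genes in grey, with the named higher genes in red and the named lower genes in blue. Red points lie in the upper right, from Apln at 1.51 and 3.25 to Spp1 at 4.98 and 3.43, and blue points in the lower left, with Ovgp1 close to the horizontal axis at -0.58. No overlap between the classes was required of the red and blue genes, which fixes their quadrants in advance.

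The labelled treatments allow tests that the split does not. In limma's moderated linear model over all 9 libraries, 0 of 14431 genes (0.0%) had an adjusted p under 0.05 in CTX against Control, 0 (0.0%) in CTX_HCQ against CTX and 0 (0.0%) in CTX_HCQ against Control. Unadjusted, p was under 0.05 for 1126 genes (7.8%), 785 (5.44%) and 312 (2.16%), and voom on the recovered reads also called 0 in each, with 1118, 744 and 296 unadjusted. All CTX libraries are high and 2 of 3 Control libraries are low, so the class and the treatment share libraries. In CTX against Control, Adamts1 stood at 11.8 ± 5.31 and 120 ± 91.8 FPKM (mean ± SD, n = 3 each), a log2 difference of -2.82 (SE 1.03, limma adjusted p 0.639). Cdkn1a stood at 6.23 ± 1.06 and 26.1 ± 17.2 FPKM, a difference of -1.61 (SE 0.65, limma adjusted p 0.639). Runx1 differed by -1.69 (SE 0.65, limma adjusted p 0.639), Edn2 by -1.73 (SE 0.79, 0.647), Hsd17b7 by 2.35 (SE 1.03, 0.639) and Ces2a by 3.54 (SE 1.29, 0.639). These genes were chosen by a split that shares libraries with the comparison, and none passed the threshold.

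In CTX_HCQ against CTX, Adamts1 stood at 50.5 ± 70.5 and 11.8 ± 5.31 FPKM, a difference of 1.03 (SE 1.03, limma adjusted p 0.907), and Cdkn1a at 12.6 ± 11.01 and 6.23 ± 1.06, a difference of 0.61 (SE 0.65, limma adjusted p 0.909). Without Control 1, the single high library of its group, limma called 13 genes in CTX against Control and 10 in CTX_HCQ against CTX. All 13 were higher in CTX, and 0 of the 10 were higher in CTX_HCQ. Control then holds low libraries only and CTX high ones only, so class and treatment cannot be told apart in that comparison.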

How the data were processed

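Polyadenylated RNA of granulosa cells was sequenced in 9 libraries, 3 per treatment, per the labels' protocols. The authors deposited 1 table of FPKM for 56748 gene identifiers. The submitters' processing notes name fastp 0.23.2, HISAT2 2.0.5, featureCounts 1.5.0-p3, DESeq2 1.20.0 and the build GRCm39, also called mm39. No source used here gives the strandedness, so overlapping and antisense genes are uncertain, as are near-identical copies such as the globin genes. Symbols and exon lengths came from GENCODE M21, and promoter windows from RefSeq on GRCm38.p6.

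Low FPKM values are whole multiples of what 1 read is worth. Within 0.02 reads, whole reads were obtained in all 9 libraries for 14397 of 14431 tested genes, with the annotated length for 13578 and a searched length for 819. Totals ran from 13920684 to 17777139 reads.

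Genes with FPKM of at least 1 in at least 3 libraries were analysed as log2(FPKM + 1), which makes differences of weakly expressed genes too small. The treatments were compared with limma 3.58.1 in R 4.3.3, 1 mean per treatment over 9 libraries, trended variances, two-sided, with Benjamini-Hochberg adjustment over all genes and a threshold of 0.05. Labels do not say that libraries are separate animals, so p-values measure the spread between libraries, which may be technical. No test was made of the classes.

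Genes named are the 15 per direction with the largest difference among those without overlap whose mean FPKM over 9 libraries was 5 or more, without Cyp17a1 and without names made of Gm and digits, ending in Rik, starting with mt- or of immunoglobulin segments. Also named are Cdkn1a, Adamts1, Runx1, Edn2, Amh, Fshr, Foxl2, Cyp19a1, Lhcgr, Star and Insl3, and up to 4 members of each of 30 gene lists. One gene that this rule names is not reported here. Further genes are marked in the text as chosen after their values were seen. The 2 classes, their members and the lists were chosen with earlier results of these data known. Alternatives changed the scaling, the pseudocount, the filter, each library left out, the replicate number as a block and the class as a covariate.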

Additional observations from a re-analysis of the deposited data

Results flagged for a closer look

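Single libraries that stood far from the rest of their class were looked for in 41 values, and 6 were found by a gap of more than 0.625 of the range among 6 libraries or 0.493 among 9. Chance alone gives about 1 such value in 20. Among the 6 high libraries, Parm1 was 13.6 FPKM in Control 1, above the other 5, and St3gal1 was 3.96 FPKM in CTX_HCQ 2, below them. In CTX_HCQ 3, Ces2a at 6.88 FPKM and Star, which moves cholesterol into mitochondria, at 42.7 FPKM lay below the other high libraries. CTX_HCQ 3 also had the fewest recovered reads of the 9 libraries, 13920684, and CTX 3 had the largest share of FPKM in mitochondrially encoded genes, 28.9%. Recovery was least complete in CTX_HCQ 3, at 0.907 of the library size behind its FPKM, and that size was not among the values examined. For Parm1, St3gal1 and Ces2a the flagged libraries still lay apart from the 3 low libraries, and Star overlapped between the classes.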

How the results depend on the processing

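The count of lower genes was 275 with a pseudocount of 0.1, 85 with a mean FPKM of at least 5 and 240 without CTX 3 and CTX_HCQ 3, an alternative chosen after seeing the data. No overlap alone gave 1213 higher and 661 lower genes. With each library left out in turn, higher genes numbered 187 to 267 and lower genes 149 to 232. Of the list medians recomputed under alternatives 489 stayed within the spread between libraries of a treatment and 2 moved: motile cilia and oviduct markers to -2.03 with a pseudocount of 0.1, and the cAMP response list to -0.10 without CTX_HCQ 1. Control and CTX_HCQ hold both classes, so the split itself widens that spread, and staying within it shows little. The luteal median changed sign without CTX 3 and CTX_HCQ 3 and was still counted as staying. Calls in CTX versus Control ranged from 0 to 13 and in CTX_HCQ versus CTX from 0 to 10 over the libraries left out, with all calls coming without Control 1, and were 0 in CTX_HCQ versus Control. Without Control 1 the Control libraries are all low and the CTX libraries all high, so those calls cannot tell treatment from class. The labels do not say whether replicate numbers pair the libraries. Deviations of same-numbered libraries from their treatment means correlated at -0.457 to 0.135, over 0.1 in 3 of 9 pairs. The split also enters these deviations, so they cannot exclude a pairing. With the replicate number as a block, limma called 0 genes in each comparison, with 847, 668 and 293 at an unadjusted p under 0.05. With the class as a covariate it also called 0 in each, with 287, 665 and 227 unadjusted; the class comes from the measured values, so this fit supports nothing. With 3 libraries per treatment, a count of 0 does not show that the treatments act alike.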

Other observations

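Some genes outside the naming rule, chosen after their values were seen, encode the partners of genes named above. Aplnr, the receptor of the peptide from Apln, stood at 1.19, 1.53 and 2.28 FPKM in the 3 low libraries against 2.71 to 7.78 in the 6 high ones, a log2 difference of -1.30, while Apln differed by 2.29. Cxcl12, the ligand of Cxcr4, stood at 3.79, 2.68 and 3.46 FPKM against 5.12 to 17.5, a difference of -1.36, while Cxcr4 differed by 3.33. Ednrb, an endothelin receptor, stood at 0.914, 1.19 and 0.650 FPKM against 2.14 to 5.39, a difference of -1.20, while Edn2 differed by 2.54. Ednra, the other endothelin receptor, overlapped, with a difference of -0.47. In these 3 pairs 1 partner was higher and the other lower in the low libraries without overlap, which their choice fixed. No overlap was a condition for naming Apln, Cxcr4 and Edn2, and Aplnr, Cxcl12 and Ednrb were picked with their values known. Partners of the other named genes were not counted. Endothelial cells are known to make Aplnr, and their markers were lower in the same libraries with a median difference of -1.03. The part of that in Aplnr was not tested.

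Nppc, the C-type natriuretic peptide that holds the oocyte in meiotic arrest, stood at 12.4, 12.5 and 13.3 FPKM in the low libraries against 26.8 to 76.0, a difference of -1.46, and its receptor Npr2 overlapped at -0.51. Rgcc, a regulator of the cell cycle, stood at 165, 217 and 219 FPKM against 21.7 to 66.7, a difference of 2.11. Glul, glutamine synthetase, stood at 198, 276 and 214 against 32.5 to 60.6, a difference of 2.14. Acly and Me1, which supply acetyl-CoA and NADPH for lipid synthesis, differed by 1.31 each without overlap, with Me1 at 463, 515 and 489 FPKM against 78.5 to 298. They are higher in the libraries in which the cholesterol genes are lower. These genes were likewise chosen after their values were seen, and no test was made of them.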
